A study of Mus musculus with 6 samples.

Results

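Zinc transporters and metallothioneins were followed in the colon of mice with and without the mucin Muc2. The 10 genes were taken by symbol from the deposited count and FPKM tables: the importers Slc39a4, Slc39a5, Slc39a7 and Slc39a10, the exporters Slc30a1, Slc30a4, Slc30a5 and Slc30a7, and the metallothioneins Mt1 and Mt2. All 10 were found among 55849 genes in the tables, and 9 of them, all but Mt2, had enough counts to be tested among 16107 genes. Polyadenylated RNA of the descending colon was sequenced from wild-type C57BL/6 mice (3 libraries) and Muc2-/- mice (3 libraries), all at 12 weeks of age and without treatment. Muc2 encodes the gel-forming mucin of colonic mucus, and mice without a working copy develop colitis of their own accord. The labels describe neither the Muc2 allele nor the background strain of the Muc2-/- mice, and they do not say whether the numbered replicates are separate animals, so p-values reflect only how far these libraries spread. Crypts are named in the titles, whereas the protocols describe colon tissue.

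Zinc enters the cytosol through transporters of the Slc39 (ZIP) family and leaves it, towards the outside or into organelles, through those of the Slc30 (ZnT) family. Metallothioneins are small cysteine-rich proteins that bind zinc and copper in the cytosol. When cytosolic zinc is high, the transcription factor MTF1 binds metal response elements in DNA and induces Mt1, Mt2 and the exporter Slc30a1, which together lower free zinc. In the intestine, Slc39a4 takes up zinc at the apical membrane of the epithelium, and Slc39a5 sits at the basolateral membrane.

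No tested member passed the comparison of the genotypes by edgeR's quasi-likelihood test with Benjamini-Hochberg adjustment over all genes tested. The count was 0 of 9 in each direction, against 0.106% of all genes called higher and 0.0186% called lower in Muc2-/-. At an unadjusted p under 0.05 the same test marked Slc39a4, Slc30a4 and Mt1 as higher and no member as lower, against 8.23% of all genes higher and 12.7% lower. DESeq2, an alternative test, called 1 member, Mt1, as higher and 0 as lower, against 4.09% and 7.41% of all genes. Levels in CPM (counts scaled to the library total and a TMM composition factor) did not overlap between the groups for Slc39a4, Slc30a4 and Mt1, which were higher in Muc2-/-, or for Slc39a7, which was lower. The Slc39a7 counts, used throughout this paragraph, are not read as its level, for the reason given with its values below. Across all genes tested, 13.3% were higher and 15.2% lower without overlap. Without the composition factor, of the tested members only Slc39a7 kept its groups apart, against 7.05% of all genes higher and 23.4% lower, so the separation of the 3 higher members rests on that factor. The median log2 fold change of the 9 members was 0.18, beside -0.01 for all genes tested, with 7 members above 0 and 2 below. Scaling to epithelial genes, described further down, moved all genes down together and turned 6 of those 7 negative, while all 7 stayed above the median of all genes tested.

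**Figure D1:**
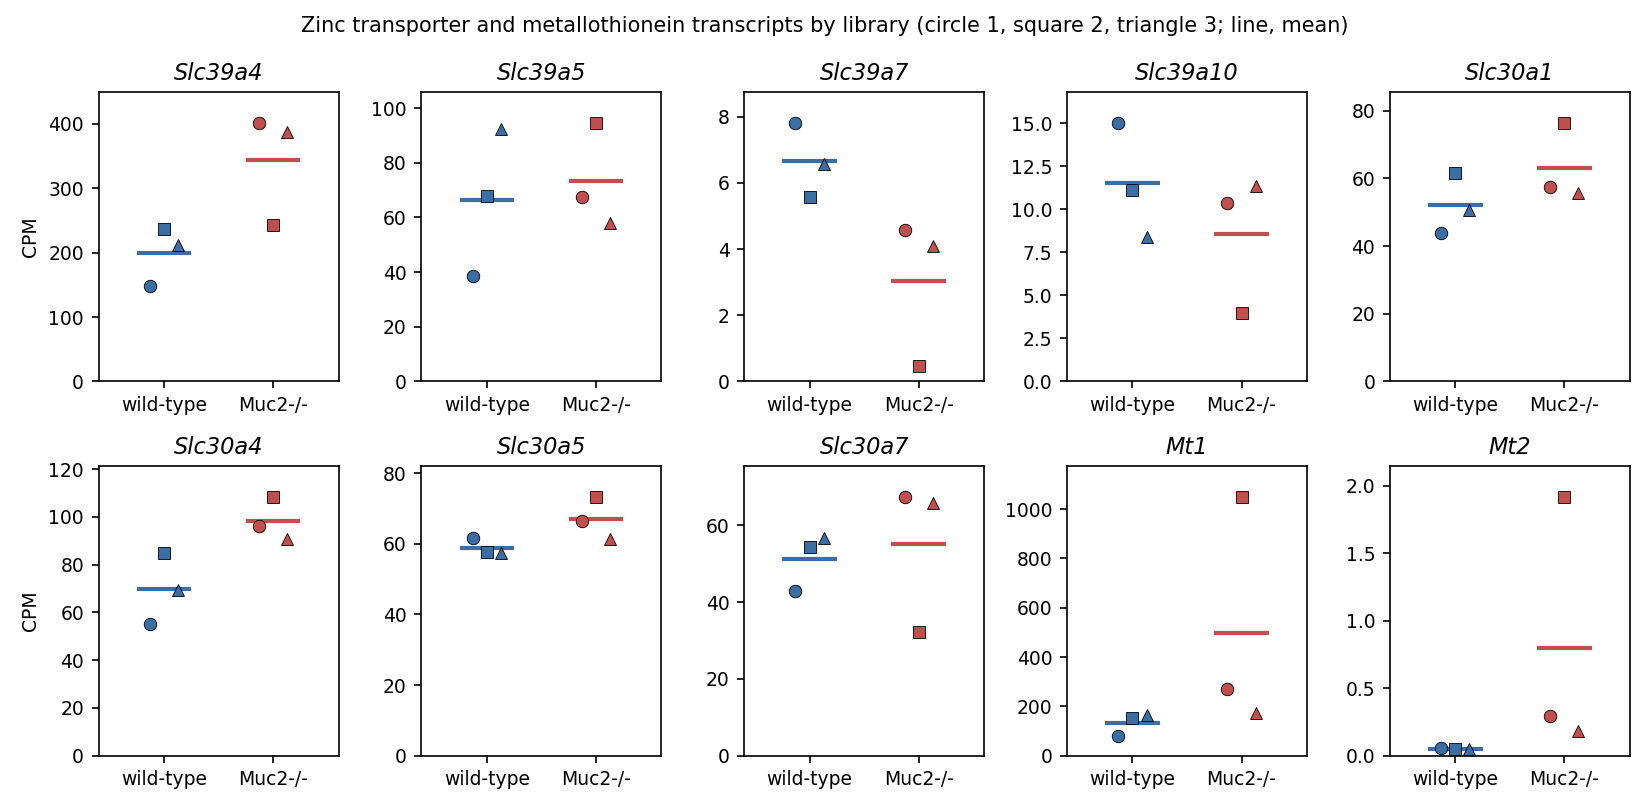
CPM of each gene (vertical axis, starting at 0, with its own range in each panel) in the 3 wild-type (blue) and the 3 Muc2-/- (red) libraries; circles, squares and triangles are replicates 1, 2 and 3, and lines are group means. Mt1 and Mt2 each have a single high point, Muc2-/- 2, and that library is also the lowest of all for Slc39a7, Slc39a10 and Slc30a7.

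The libraries held 16395432 to 20336459 counts each. Muc2 itself was at 2480, 6977 and 2629 CPM in libraries 1, 2 and 3 of wild-type, against 757, 1021 and 942 CPM in those of Muc2-/-, a mean 4.44-fold higher in wild-type. Marker levels differed between libraries of 1 group as well as between groups. The summed level of 8 smooth muscle markers was 20270, 11810 and 5703 CPM in libraries 1, 2 and 3 of wild-type, against 2457 to 4378 CPM in Muc2-/-. That of 8 genes expressed throughout the epithelium (Epcam, Cdh1, Krt8, Krt18, Krt19, Cldn7, Vil1 and Elf3) was 9738, 15256 and 18582 CPM in the wild-type libraries, against 22193, 38245 and 23485 CPM in Muc2-/-. The sum of 8 absorptive colonocyte markers overlapped between the groups, at 7168 to 11971 CPM and 9224 to 12691 CPM. No marker of these 3 lists was at 0 throughout a group. Sums of 8 markers each were also 1229 to 1771 CPM against 5830 to 7144 CPM for plasma cells, 77.3 to 232 CPM against 405 to 785 CPM for neutrophils, and 49.5 to 201 CPM against 34.9 to 41.9 CPM for neurons and glia, wild-type first. Of the neutrophil markers, 4 (S100a9, Cxcr2, Retnlg and Elane) were at 0 throughout wild-type. Sums of 8 markers each for fibroblasts, endothelium, macrophages and B cells overlapped between the groups. The goblet cell sum was 2907, 3659 and 17442 CPM in the wild-type libraries, against 17565 to 26352 CPM in Muc2-/-. In bulk tissue, more cells of a type and more RNA per cell cannot be told apart, and the part of tissue makeup in the values below was not tested.

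On the FPKM scale, which divides by the listed gene length and so allows genes to be compared, the wild-type mean levels spanned a wide range. Mt1 stood highest at 105 ± 38.6 FPKM (SD, n = 3), but its listed length of 1246 bases is the whole gene span, against 549 bases in its spliced transcript, so its FPKM is low for its counts. Slc39a4 followed at 63.6 ± 15.2 FPKM, and its libraries overlapped with those of Mt1. Slc39a5 was at 29.7 ± 12.7 FPKM, below every Slc39a4 library and above every Slc30a4 library, so both intestinal importers exceeded all the exporters. Slc30a4, Slc30a1 and Slc30a5 came next at 12.6 ± 2.73, 9.83 ± 1.72 and 7.999 ± 0.219 FPKM, each overlapping with its neighbour. Slc30a7 stood apart from its neighbours at 4.57 ± 0.747 FPKM. Slc39a10 was the lowest of these 8 genes at 1.86 ± 0.498 FPKM. Slc39a7 and Mt2, listed at 2.55 ± 0.406 and 0.0870 ± 0.00446 FPKM, are given no place in the order, because most of their exonic bases are shared with another gene, as described below. The 8 genes kept this order in the Muc2-/- means, from 404.2 ± 394 FPKM for Mt1 and 111 ± 27.0 FPKM for Slc39a4 down to 1.41 ± 0.651 FPKM for Slc39a10.

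Among the importers, Slc39a4 had the highest level and the largest positive difference. This transporter (ENSMUSG00000063354, chromosome 15, 76496583 to 76501584 as the count table has it) is the one mutated in the zinc deficiency disorder acrodermatitis enteropathica. It was at 148, 237 and 212 CPM in libraries 1, 2 and 3 of wild-type, against 401, 244 and 387 CPM in those of Muc2-/-. Muc2-/- 1 and 3 lay well above all wild-type libraries, whereas Muc2-/- 2 lay only just above wild-type 2 and, without the composition factor, below it at 213 against 252 CPM. The log2 fold change was 0.79 (95% interval 0.14 to 1.43), with an adjusted p of 0.169 by edgeR's quasi-likelihood test and 0.0601 by DESeq2. Leaving out Muc2-/- 2 gave 1.01 with an adjusted p of 0.174, and leaving out wild-type 1, the library with the most muscle transcript, gave 0.61.

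Slc39a5, the basolateral importer, was at 38.4, 68.0 and 92.4 CPM in the wild-type libraries, against 67.6, 94.6 and 58.0 CPM in Muc2-/-. The groups overlapped throughout, and wild-type alone spanned most of the range. The log2 fold change was 0.15 (95% interval -0.62 to 0.92, adjusted p = 0.840 by edgeR), an interval that leaves room for a change of either sign. Slc39a10, an importer of the plasma membrane, was at 15.01, 11.1 and 8.39 CPM in the wild-type libraries, against 10.4, 3.96 and 11.4 CPM in Muc2-/-. Its groups overlapped too, and without Muc2-/- 2 the log2 fold change went from -0.42 (95% interval -1.42 to 0.57, adjusted p = 0.610 by edgeR) to -0.05.

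Slc39a7 releases zinc from the endoplasmic reticulum and Golgi into the cytosol. It was at 7.81, 5.58 and 6.58 CPM in the wild-type libraries, against 4.58, 0.463 and 4.08 CPM in Muc2-/-, from 107 to 141 counts in wild-type against 77, 7 and 66. All Muc2-/- libraries were below all wild-type libraries, and Muc2-/- 2 was far below the others. The log2 fold change was -1.12 (95% interval -2.71 to 0.47, adjusted p = 0.387 by edgeR) and -0.60 without Muc2-/- 2. In the GENCODE M21 annotation, 80.7% of the exonic bases of Slc39a7 (chromosome 17, 34247243 to 34250656 in the table's coordinates) are shared with the same-strand long noncoding gene Gm20427. That gene had 0 to 3 counts in each library. The sources used here do not say how reads in shared bases were assigned, so it is not known which of its reads the Slc39a7 counts hold, and they are not read as its level.

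Among the exporters, Slc30a4 had the largest difference. Slc30a4 (ENSMUSG00000005802, chromosome 2, 122523153 to 122544583 in the table's coordinates) moves zinc into vesicles and is known for loading zinc into milk. It was at 55.3, 84.9 and 69.4 CPM in the wild-type libraries, against 96.0, 108 and 90.9 CPM in Muc2-/-. The lowest Muc2-/- library was close above wild-type 2, and without the composition factor the groups overlapped, with Muc2-/- 3 at 88.4 CPM and wild-type 2 at 90.4 CPM. The log2 fold change was 0.49 (95% interval 0.02 to 0.97, adjusted p = 0.224 by edgeR and 0.172 by DESeq2), and it lay between 0.35 and 0.66 with any 1 library left out.

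Slc30a1 is the zinc exporter of the plasma membrane and a textbook target of MTF1. It was at 43.8, 61.5 and 50.8 CPM in the wild-type libraries, against 57.5, 76.4 and 55.7 CPM in Muc2-/-. The groups overlapped, with wild-type 2 above Muc2-/- 1 and 3. The log2 fold change was 0.28 (95% interval -0.20 to 0.77, adjusted p = 0.477 by edgeR).

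Slc30a5 and Slc30a7 carry zinc into the early secretory pathway, where alkaline phosphatases and other secreted enzymes receive it. Slc30a5 was at 61.7, 57.6 and 57.6 CPM in the wild-type libraries, against 66.4, 73.2 and 61.4 CPM in Muc2-/-, overlapping by a narrow margin between wild-type 1 and Muc2-/- 3. Its log2 fold change was 0.18 (95% interval -0.19 to 0.56, adjusted p = 0.546 by edgeR), the narrowest interval among the members. Slc30a7 was at 42.8, 54.3 and 56.6 CPM in the wild-type libraries, against 67.3, 32.1 and 65.8 CPM in Muc2-/-. Muc2-/- 1 and 3 were above all wild-type libraries and Muc2-/- 2 below them all, and the log2 fold change was 0.10 (95% interval -0.58 to 0.79, adjusted p = 0.873 by edgeR) with Muc2-/- 2 and 0.40 without it.

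**Figure D2:**
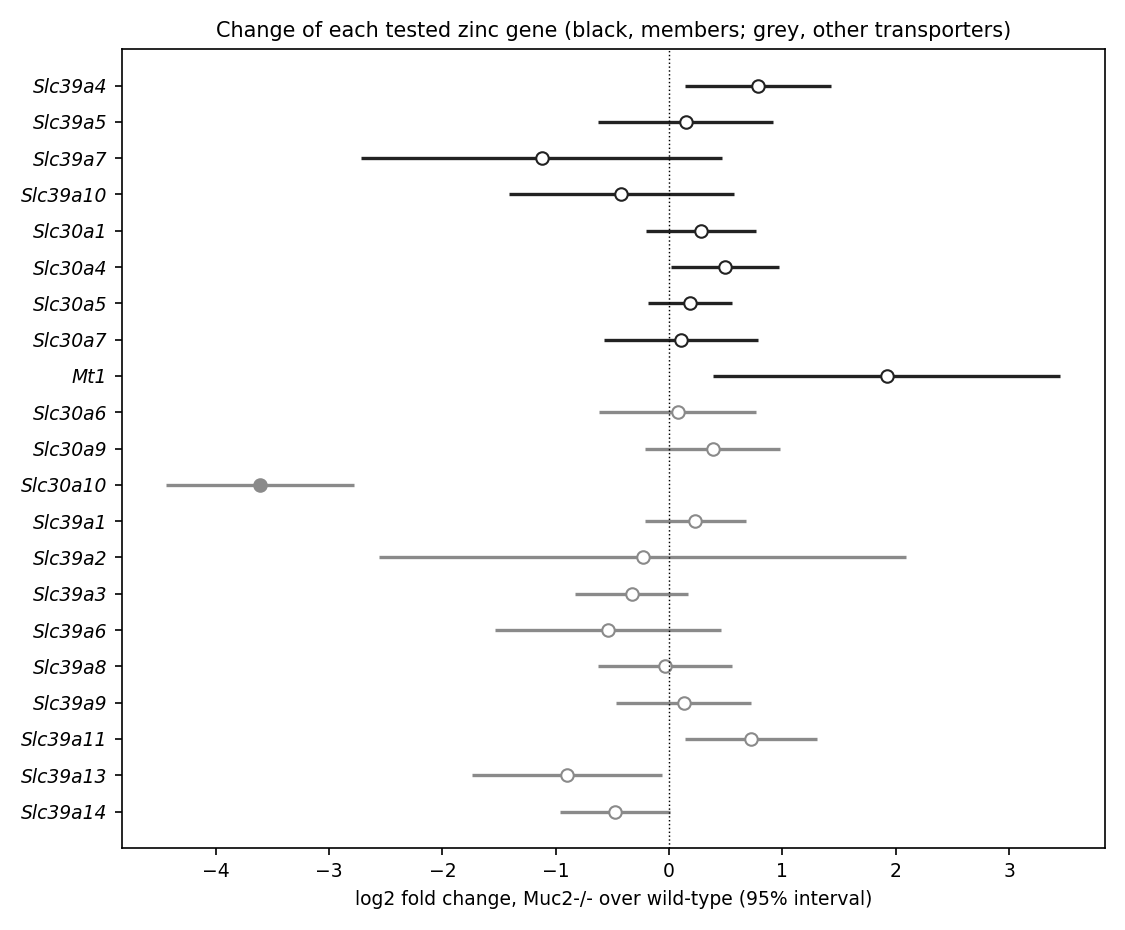
Log2 fold change of Muc2-/- over wild-type (horizontal axis) with its 95% interval for the 9 tested members (black) and the 12 other tested zinc transporter genes (grey); filled points passed an adjusted p of 0.05 in edgeR's quasi-likelihood test. The only filled point is Slc30a10 at -3.61, and the widest interval among the members is that of Slc39a7.

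The metallothionein Mt1 showed the largest difference of the 9 members, and 1 library carried most of it. Mt1 (ENSMUSG00000031765, chromosome 8, 94905710 to 94906955 in the table's coordinates) was at 78.4, 153 and 163 CPM in libraries 1, 2 and 3 of wild-type, against 272, 1048 and 172 CPM in those of Muc2-/-. Muc2-/- 2 was 4.71-fold above the mean of the other Muc2-/- libraries, and Muc2-/- 3 exceeded wild-type 3 by only 9.13 CPM. The log2 fold change was 1.92 (95% interval 0.39 to 3.45, adjusted p = 0.162) by edgeR's quasi-likelihood test. DESeq2 gave an adjusted p of 0.0212, and edgeR without a filter on low counts gave 0.0337. Without Muc2-/- 2 the log2 fold change was 0.78 with an adjusted p of 0.281, and the Muc2-/- mean was 1.69-fold that of wild-type.

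Mt2 lies just upstream of Mt1 on the same strand of chromosome 8 (ENSMUSG00000031762, 94899292 to 94900196 in the table's coordinates). It had 1 count in each wild-type library and 5, 29 and 3 counts in Muc2-/- 1, 2 and 3, too few to be tested. The ratio of the depth-scaled sums was 14.9, with a 95% interval from 4.73 to 75.7 for counting error alone. Of the Muc2-/- counts, 78.4% came from Muc2-/- 2, the library that was also highest for Mt1. Over all libraries there were 775 Mt1 counts per Mt2 count. In GENCODE M21, 73.5% of the exonic bases of Mt2 are shared with the long noncoding gene Gm45774 on the opposite strand, which had 0 to 13 counts in each library, whereas no exonic base of Mt1 is shared with another gene. The coding sequences of Mt1 and Mt2 are identical at 79.2% of their 183 bases, and none of the 554 distinct runs of 50 bases in the Mt2 transcripts occurs in those of Mt1. Since neither the strand setting nor the treatment of shared bases is known here, the Mt2 counts are not read as its level.

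As a share of all counts, Mt1 and Mt2 together took 0.00864%, 0.0163% and 0.0169% in libraries 1, 2 and 3 of wild-type, against 0.0262%, 0.0920% and 0.0168% in those of Muc2-/-. On this scale, which uses no composition factor, Muc2-/- 3 lay just below wild-type 3 and the groups overlapped. The mean difference was 0.0311 percentage points, with p = 0.2 in the exact two-sided permutation test, whose smallest possible p with 3 libraries a group is 0.1. Without Muc2-/- 2 the difference was 0.00759 percentage points.

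The promoters of Mt1, Mt2 and Slc30a1 are printed because these are the textbook MTF1 targets among the members. They come from RefSeq on build GRCm38.p6, whose coordinates differ from those of the count table, and each runs from 250 bases before the annotated transcript start to 50 bases after it. Capitals mark matches to the core of the metal response element, searched as TGCACNC and TGCGCNC on both strands, so a match on the other strand reads as its reverse complement. The windows are chr8:94178839-94179138 for Mt1, chr8:94172368-94172667 for Mt2 and chr1:191906531-191906830 for Slc30a1, all on the plus strand.
Mt1: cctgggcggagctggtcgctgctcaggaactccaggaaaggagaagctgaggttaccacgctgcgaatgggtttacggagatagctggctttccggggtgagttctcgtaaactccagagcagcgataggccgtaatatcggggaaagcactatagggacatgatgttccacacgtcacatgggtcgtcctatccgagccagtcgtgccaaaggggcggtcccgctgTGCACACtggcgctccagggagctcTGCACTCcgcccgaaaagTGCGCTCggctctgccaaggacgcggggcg
Mt2: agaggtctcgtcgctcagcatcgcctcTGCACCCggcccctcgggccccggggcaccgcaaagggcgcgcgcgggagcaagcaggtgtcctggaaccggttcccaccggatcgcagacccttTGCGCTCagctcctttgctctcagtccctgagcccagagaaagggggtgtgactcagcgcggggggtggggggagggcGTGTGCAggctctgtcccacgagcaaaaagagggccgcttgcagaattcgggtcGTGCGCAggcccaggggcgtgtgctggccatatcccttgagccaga
Slc30a1: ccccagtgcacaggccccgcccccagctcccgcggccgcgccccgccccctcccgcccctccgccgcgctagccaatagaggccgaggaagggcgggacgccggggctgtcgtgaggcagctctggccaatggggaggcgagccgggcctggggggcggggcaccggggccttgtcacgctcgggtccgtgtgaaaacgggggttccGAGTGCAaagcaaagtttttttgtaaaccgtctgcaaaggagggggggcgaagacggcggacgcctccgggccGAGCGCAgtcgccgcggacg

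Mt1 held 3 cores, all in the direction of the gene, Mt2 held 4, with 2 in each direction, and Slc30a1 held 2, both on the other strand. The 3 cores of Mt1 lay within a short stretch around the annotated RefSeq start, from 23 bases before it to 26 after it. Cores more than 50 bases after that start were not searched for, and whether transcription begins there was not tested. Among all 32851 RefSeq promoters of the same length, 25.7% held at least 1 core, 7.11% at least 2 and 0.517% at least 4. Promoters were matched for 9 members, all but Slc39a4, and 6 of the 9 held a core. That count is by gene, at any of its starts, whereas the shares above are by promoter, so the 2 are not like for like. Slc30a4 held 3, Slc30a5 held 1 and Slc39a5 held 1 at 1 of its 2 starts, while no match was found in these windows for Slc30a7, Slc39a7 and Slc39a10. A match describes the letters only.

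**Figure D3:**
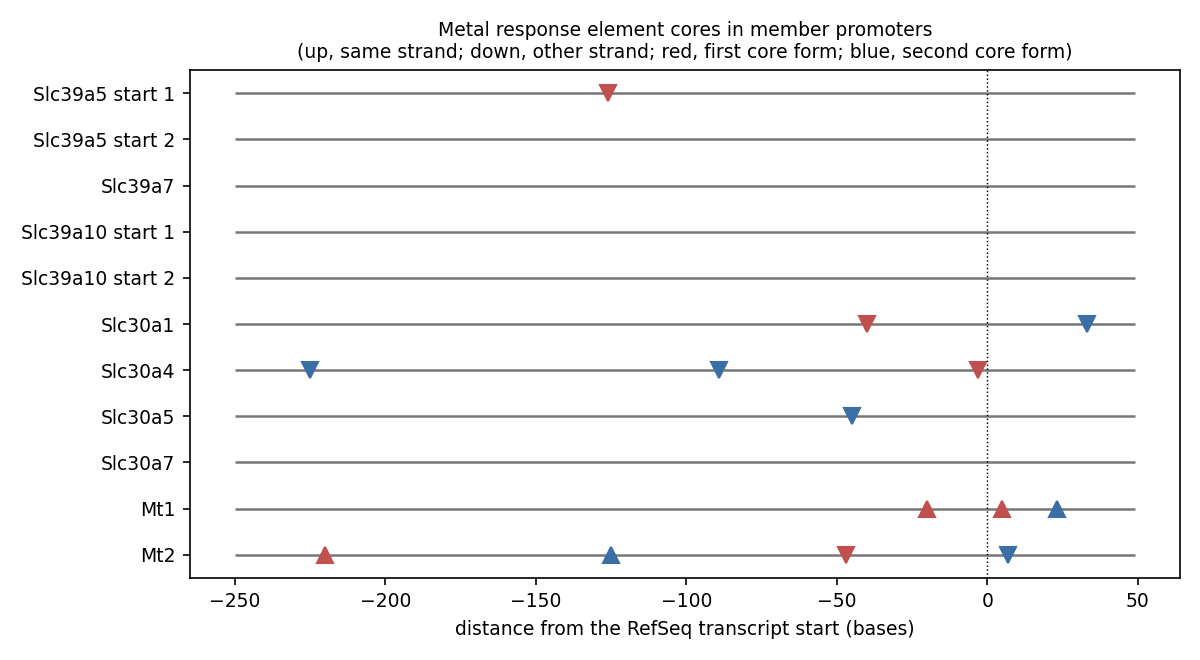
Positions of metal response element cores (triangles) in the RefSeq promoter windows of 9 members, as distance in bases from the transcript start (horizontal axis); Slc39a5 and Slc39a10 have 2 annotated starts each. Upward triangles are on the strand of the gene, downward ones on the other strand, and the 3 cores of Mt1 sit closest together.

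The members did not all go the same way in Muc2-/- 2. There, the log2 ratio of CPM to the mean of the other Muc2-/- libraries, with 0.1 CPM added to both, was 2.24 for Mt1, 0.59 for Slc39a5 and 0.43 for Slc30a1. The same ratio was -0.69 for Slc39a4, -1.05 for Slc30a7, -1.43 for Slc39a10 and -2.98 for Slc39a7. Muc2-/- 2 also stood apart from the rest in general: its mitochondrially encoded genes took 1.04% of the counts, against 3.30% to 8.98% in the others, and its long genes were low. With the 14899 tested genes at 1 CPM or more on average in 5 equal bins by listed length, the median of this ratio went from 0.33 in the shortest to -0.25 in the longest bin. Mt1 lies in the shortest bin and Slc30a7 in the longest. Counted from the shortest, bin 2 (median 0.08) holds Slc39a5, Slc39a4 and Slc39a7. Slc30a1, Slc30a4, Slc30a5 and Slc39a10 lie in bin 4 (median -0.15), where the ratio was 0.21 for Slc30a4 and 0.20 for Slc30a5. The members thus lay on both sides of the medians of their bins. Fitting edgeR with an offset for the trend with length left Mt1 at 1.71, Slc39a4 at 0.80, Slc39a7 at -1.11 and Slc30a7 at 0.25, with 0 members called.

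**Figure D4:**
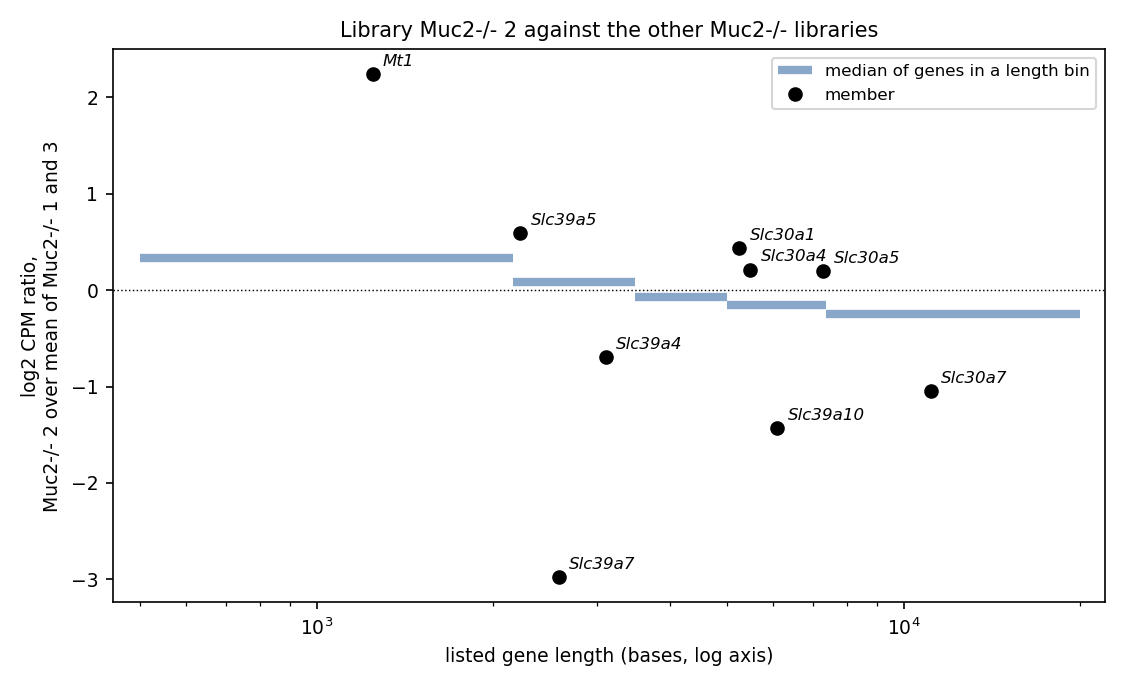
Log2 ratio of CPM in Muc2-/- 2 to the mean of Muc2-/- 1 and 3 (vertical axis) against listed gene length in bases (horizontal log axis) for the 9 tested members (points); bars are medians of the 14899 tested genes at 1 CPM or more in 5 equal bins by length, drawn only within the plotted range. The bars step down from 0.33 to -0.25, and the members run from Slc39a7 at -2.98 to Mt1 at 2.24.

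Because epithelial transcripts took a larger share of the Muc2-/- libraries, the fit was repeated with libraries scaled to the summed counts of the 8 epithelial genes named above. Krt8 and Krt19 weighed most in that sum, at 5882 and 3245 CPM on average in wild-type, with Epcam next at 1950 CPM. Under TMM the log2 fold changes of the 8 ran from 0.41 for Vil1 to 1.26 for Krt19. Other epithelial genes were not tested as a reference. Scaling to these 8 genes moved the median of all genes tested by -0.96 on the log2 scale. The values then became -0.69 for Slc30a1, -0.44 for Slc30a4, -0.81 for Slc30a5, -0.72 for Slc30a7, -0.04 for Slc39a4 and -0.74 for Slc39a5, all of opposite sign, while Mt1 kept a positive value of 0.81. No member passed the test under this scaling either. Relative to the median of all genes, Slc39a4 was at 0.93 under this scaling and 0.80 under TMM, Slc30a4 at 0.53 and 0.51, and Mt1 at 1.78 and 1.93.

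**Figure D5:**
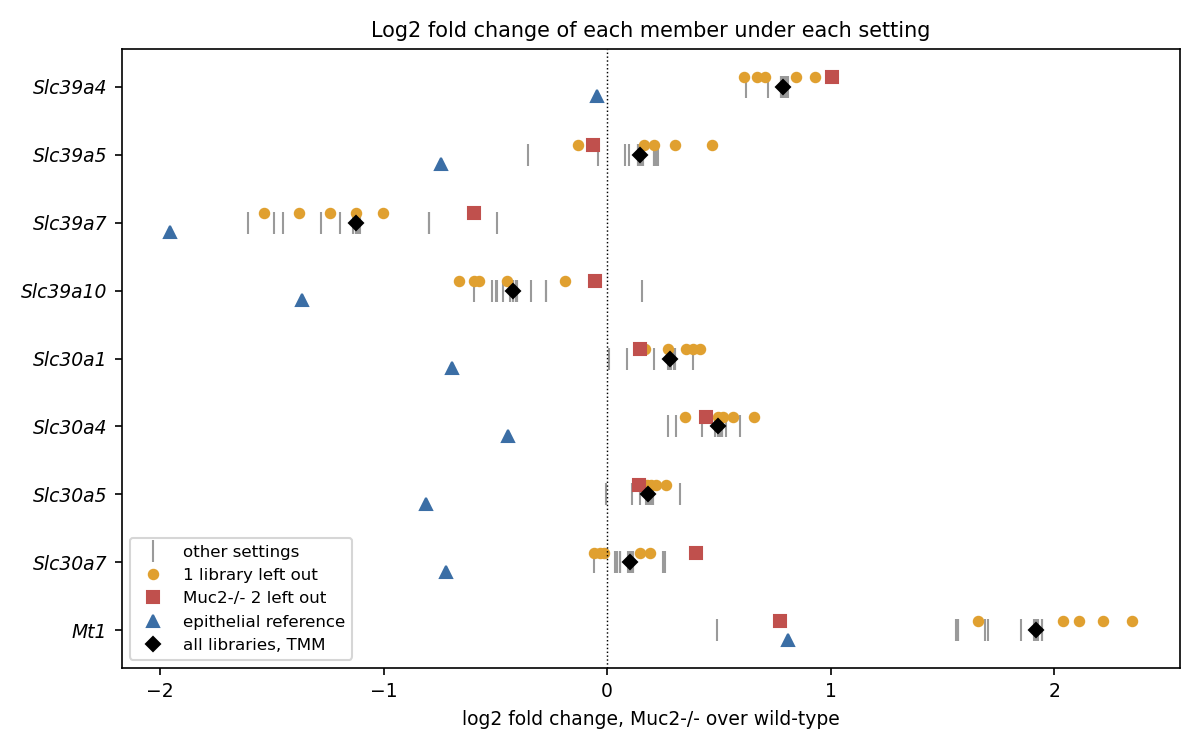
Log2 fold change of Muc2-/- over wild-type (horizontal axis) of each tested member under TMM scaling with all libraries (diamonds), with 1 library left out (circles, and squares for Muc2-/- 2), scaled to 8 epithelial genes (triangles) and under the other settings (ticks). Mt1 and Slc39a7 move most when Muc2-/- 2 is left out, to 0.78 and -0.60, and the triangles lie left of the diamonds for all members.

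Of the 16 other zinc transporter genes in the tables, 12 had enough counts to be tested. By edgeR 1 was called lower and 0 higher, against 0.0186% and 0.106% of all genes tested. DESeq2 also called 1 lower and 0 higher, against 7.41% and 4.09% of all genes. The median log2 fold change of the 12 was -0.13, beside -0.01 for all genes tested. The gene that fell was Slc30a10, which despite its family exports manganese. It was at 15.95, 9.43 and 16.8 CPM in the wild-type libraries, against 1.07, 1.26 and 1.11 CPM in Muc2-/-. The groups were far apart, and the log2 fold change was -3.61 (95% interval -4.44 to -2.78, adjusted p = 0.0286 by edgeR). Its fitted value stayed between -3.83 and -3.45 with any 1 library left out, but the adjusted p then rose to as much as 0.187, and only leaving out wild-type 3 kept the call. The call was kept by DESeq2 (-3.60, adjusted p = 6.07e-16) and by edgeR without the filter on low counts (adjusted p = 0.000165). It was also kept by edgeR with the replicate number as a block (adjusted p = 0.0102). The call was lost without wild-type 1 and Muc2-/- 2 together (adjusted p = 0.126), with limma-voom (-3.54, adjusted p = 0.0612) and with limma on log2(FPKM + 0.1), at -2.97 with an adjusted p of 0.0760. On log2(FPKM + 1), where the pseudocount shrinks the change of a low gene, the value was -1.40, with an adjusted p of 0.0546 with a minimum level and 0.154 with none. In GENCODE M21, 9.13% of its exonic bases are shared with Gm2061 on the opposite strand, which had 29 to 70 counts in wild-type and 0 to 8 in Muc2-/-.

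Slc39a11 and Slc39a13 were the other transporters at an unadjusted p under 0.05, and they are named after their values were seen. At that threshold 8.23% of all genes were higher and 12.7% lower. Slc39a11 was at 47.0, 77.2 and 86.3 CPM in the wild-type libraries, against 127, 103 and 118 CPM in Muc2-/-, with a log2 fold change of 0.72 and an adjusted p of 0.163 by edgeR. Slc39a13 was at 28.4, 15.8 and 11.01 CPM in the wild-type libraries, against 11.2, 9.38 and 9.02 CPM in Muc2-/-, with a log2 fold change of -0.90 and an adjusted p of 0.212 by edgeR. Its wild-type order is that of the smooth muscle markers given above. The member Slc39a10 had the same wild-type order, as did Il6st, described below, at 168, 110 and 63.8 CPM. Slc39a7, also lower in Muc2-/-, did not have it, at 7.81, 5.58 and 6.58 CPM. An order of 3 libraries is easily shared, and how many of all genes have this 1 was not counted. The part of muscle in these differences was not tested.

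Genes around zinc sensing gave no call. Of 5 listed, 3 were tested and 0 passed edgeR's or DESeq2's adjusted threshold or an unadjusted p under 0.05. Of all genes, edgeR put 8.23% higher and 12.7% lower at that unadjusted p, and DESeq2 called 4.09% and 7.41%. Mtf1, the metal-sensing transcription factor, was at 19.995, 32.4 and 37.1 CPM in the wild-type libraries, against 38.0, 22.8 and 43.0 CPM in Muc2-/-, with overlapping groups. The zinc-sensing receptor gene Gpr39 had a log2 fold change of 0.56 (95% interval -0.21 to 1.33), and Mt3, the metallothionein best known from brain, one of -1.29 (95% interval -3.24 to 0.66). That of Mt3 ran from -2.68 without Muc2-/- 2 to -0.71 without wild-type 2. Copper handling genes, whose metal also binds metallothioneins, had 0 of 6 called and 0 at an unadjusted p under 0.05 by edgeR, and 0 by DESeq2. The shares of all genes are those given for zinc sensing. The copper importer Slc31a1, the chaperone Atox1 and the superoxide dismutase chaperone Ccs had log2 fold changes of 0.24, 0.36 and 0.06.

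Among 10 zinc enzymes of the secretory pathway or the cell surface, 9 were tested, 0 were called by edgeR or DESeq2, and at an unadjusted p under 0.05 none was higher and 2 were lower (8.23% and 12.7% of all genes). Mep1a, which encodes a subunit of the brush-border protease meprin, was at 255, 460 and 358 CPM in the wild-type libraries, against 246, 199 and 161 CPM in Muc2-/-. The Muc2-/- libraries were all below the wild-type ones, and the log2 fold change was -0.82 (95% interval -1.47 to -0.18, adjusted p = 0.157 by edgeR). Mep1b, the gene of the other meprin subunit, and Ace, which encodes angiotensin-converting enzyme, had log2 fold changes of -0.21 and 0.02 with overlapping groups.

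Metallothionein genes are also induced by glucocorticoids and by STAT3 signalling, and lists for both were counted. Of 10 glucocorticoid-induced genes, 0 were called by edgeR, with 3 higher and 3 lower at an unadjusted p under 0.05 (8.23% and 12.7% of all genes), and DESeq2 called 2 in each direction (4.09% and 7.41% of all genes). Fkbp5, a glucocorticoid-induced immunophilin gene, was at 111, 198 and 184 CPM in the wild-type libraries, against 301, 481 and 264 CPM in Muc2-/-. Like Mt1 it was highest in Muc2-/- 2 and lowest in wild-type 1, as was the sum of the 8 epithelial genes given above. The log2 fold change of Fkbp5 was 1.08 with an adjusted p of 0.122 by edgeR and 0.0204 by DESeq2. Sgk1 and Tsc22d3 of the same list had log2 fold changes of 0.74 and 0.52, and that of Sgk1 ran from 0.45 to 1.45 with 1 library left out, the highest without wild-type 3 (adjusted p = 0.0498 by edgeR). Of the list, 3 genes were higher and 3 lower without overlap, against 13.3% and 15.2% of all genes. They are named after their values were seen. The higher ones were Fkbp5, Errfi1 and Nfkbia, and the lower ones Per1, Klf9 and Zbtb16, at -0.59, -0.73 and -1.36. DESeq2 called Per1 and Klf9 lower and Fkbp5 and Nfkbia higher.

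Of 10 STAT3 response genes, 0 were called by edgeR, with 4 higher and 1 lower at an unadjusted p under 0.05 (8.23% and 12.7% of all genes). DESeq2 called 3 higher (4.09% of all genes), Socs3, Reg3g and Pim1, which are named after their values were seen. The median log2 fold change of all 10 genes of the list was 0.82, beside -0.01 for all genes tested. Reg3b, an antimicrobial lectin gene, was at 0.166, 14.9 and 0 CPM in the wild-type libraries, against 95.8, 348 and 213 CPM in Muc2-/-. Its groups did not overlap, and wild-type 2 was far above the other wild-type libraries. The adjusted p was 0.122 by edgeR's quasi-likelihood test, and 0.00847 without the filter on low counts. Muc2-/- 2 was the highest library for Reg3b but the lowest Muc2-/- library for Socs3, at 46.7, 15.99 and 69.2 CPM in Muc2-/- 1, 2 and 3. Stat3 itself had a log2 fold change of 0.27, and Il6st, which encodes the signalling subunit of interleukin-6 receptors, one of -0.99 (adjusted p = 0.154 by edgeR, and 0.0295 without wild-type 3).

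The genes whose log2 CPM over the 6 libraries was most like that of Mt1, among 10908 protein-coding genes at 5 CPM or more on average, were Iah1, Xaf1 and Mpc2. Pearson's r was 0.998, 0.998 and 0.997 in that order, as a description over 6 libraries that share their depth and composition factors, and 0.974, 0.979 and 0.995 without Muc2-/- 2 and wild-type 1. Mpc2, a subunit of the mitochondrial pyruvate carrier, was at 76.9, 111 and 115 CPM in the wild-type libraries, against 137, 253 and 115 CPM in Muc2-/-. Its order of libraries was close to that of Mt1, with wild-type 1 lowest and Muc2-/- 2 highest, over a narrower range. The epithelial sum given above also had wild-type 1 lowest and Muc2-/- 2 highest.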

How the data were processed

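The authors deposited whole-number counts per gene, not normalized, and FPKM, which per the file headers and values equal counts per listed gene length and library total times a size factor of 0.860 to 1.14. The submitters' processing notes list the build mm10 and, without roles, featureCounts 1.5.0-p3, HISAT2 2.0.5, DESeq2 1.20.0 and StringTie 1.3.3b. Strand setting and the treatment of reads in shared exons are not given in the sources used here, and the table's coordinates are those of another assembly than mm10, so they are printed as deposited. Groups came from the genotype labels. The test was that of edgeR 4.0.16 under R 4.3.3 (TMM, minimum count of 10 and total of 15, quasi-likelihood fit on genotype alone, Benjamini-Hochberg at 0.05). Intervals of 95% use the fit's standard error. DESeq2 1.42.0 and limma 3.58.1 were alternatives. The procedure was tested on simulated data. Replicates differed by chi-square per degree of freedom of 27.3 to 162, so each was kept as a sample.

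The members and lists were chosen with earlier results of these data known. Named genes are the members, Slc30a10 and, of each other list, those called or else the 3 with the highest mean; of marker lists only sums are given. Likeness was to have been to the mean of Mt1 and Mt2, but Mt2 was not tested, so Mt1 alone was used. Exon overlap came from GENCODE M21 by gene identifier, and promoters from RefSeq.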

Additional observations from a re-analysis of the deposited data

How the results depend on the processing

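Of 198 member values under the 22 alternatives that refitted the fold changes, 16 changed sign, 9 of them under 2 scalings that moved all genes together, and none of the 24 alternatives called a member other than Mt1, which DESeq2 and edgeR without the filter each called (1 member higher). The cause of the changes below was not tested. Scaled to epithelial genes, Slc30a1 was at -0.69, Slc30a4 -0.44, Slc30a5 -0.81, Slc30a7 -0.72, Slc39a4 -0.0441, Slc39a5 -0.74, Mtf1 -0.58, Gpr39 -0.50, Slc31a1 -0.56, Atox1 -0.54, Ccs -0.98, Ace -0.65, Sgk1 -0.0904, Tsc22d3 -0.49, Stat3 -0.70 and Slc39a11 -0.11, with 60 genes called higher and 1803 lower. Mt3 (-2.61, adjusted p = 0.0473), Mep1a (-1.71, 0.0203), Il6st (-2.10, 0.0232) and Slc39a13 (-2.00, 0.0476) were then called lower and Reg3b (4.49, 0.0336) higher by edgeR. Without composition factors, which moved the median of all genes by -0.19, Slc30a5 was at -0.0073, Slc30a7 -0.0592, Slc39a5 -0.0407, Ccs -0.15 and Ace -0.12. With upper-quartile factors Ccs was at -0.016 and Ace at -0.0399, and with the length offset Ccs was at -0.0253. Without wild-type 1 and Muc2-/- 2 together, Slc39a5 was at -0.36, Slc39a10 at 0.15, Ccs at -0.37 and Mt1 at 0.49. With 1 library left out, Slc30a7 ran from -0.0585 to 0.40, Slc39a5 from -0.13 to 0.47, Mtf1 from -0.0121 to 0.46, Ccs from -0.25 to 0.22, Mep1b from -0.41 to 0.21 and Ace from -0.28 to 0.77. The epithelial scaling, the length offset and the pair left out were chosen after seeing the data.

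The 17 genes called higher and 3 lower over the whole table became 22 and 5 with RLE factors, 7 and 1 without composition factors, 384 and 815 without the filter, 659 and 1193 with DESeq2, 11 and 2 with limma-voom, and 10 and 2 without mitochondrial and immune receptor genes. On log2(FPKM + 1) and log2(FPKM + 0.1) with a minimum they were 37 and 9, and 31 and 8, and on log2(FPKM + 1) with no minimum 3 and 0. At an adjusted p under 0.01 they were 0 and 0, and without wild-type 1 and Muc2-/- 2 together 1 and 0. With 1 library left out they ran from 0 to 272 and from 0 to 954, both highest without wild-type 3. With the replicate number as a block they were 225 and 448, with 0 members called, and Reg3b was called (adjusted p = 0.0173 by edgeR). Deviations from the group mean correlated between same-numbered libraries at 0.0937, 0.281 and 0.0606 for replicates 1, 2 and 3. The highest correlation of each of these wild-type libraries with a differently numbered Muc2-/- library was 0.0636, -0.182 and 0.0749. The same-numbered value was thus the higher for replicates 1 and 2. These values do not settle whether the numbers pair the libraries, and the main fit leaves the numbers out. The Mt1 and Mt2 share ran from 0.00759 to 0.0452 percentage points with 1 library left out. With 3 libraries a group, Mt1's interval spans 0.39 to 3.45, and Mt2, at 1 count in each wild-type library, was too low to be tested.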
